A study of Mus musculus with 4 samples.

Results

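Conventional dendritic cells were taken from Drop-seq libraries of mouse spleen as 78 of 1770 kept cells. A kept cell was a barcode with 300 to 3000 detected genes. The gate asked for at least 2 UMIs (unique molecular identifiers, 1 per captured transcript) summed over Xcr1, Naaa, Dnase1l3, Flt3, Nav1 and Ifi205, with at least 2 of these 6 genes detected. It also allowed at most 2 UMIs of C1qa, C1qb and C1qc together, which mark macrophages, and 0 UMIs of Cd3d, Cd3e and Cd3g, which mark T cells. The cells were thus selected on the measured UMIs of these genes, so their levels are given as a description with no test. The gate held 7 cells with 2 UMIs of the 6 genes, 12 with 3 and 59 with 4 or more. Just outside it, 98 kept cells had 1 such UMI and 22 had 2 or more UMIs of a single gene. A further 10 met the limits on the 6 genes but exceeded that on C1q, and 3 were excluded by Cd3 genes alone.

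BALB/c mice received 10000 cells of BCL1, a transplantable mouse B cell lymphoma, and the spleens were digested with Liberase on day 13. The 4 groups were the combination of anti-CD20 on day 4 with anti-CD27 on days 5 to 8, anti-CD20 alone, anti-CD27 alone, and an isotype control. The cells named PBS in the deposited table were taken as the isotype control because no other name there lacks an antibody, so this match is inferred and every control value rests on it. The days are those of the sample labels, and another passage of the study's methods gives earlier ones. All mice carried the lymphoma, so no library shows dendritic cells of a tumor-free spleen. Each treatment was 1 library and the number of mice behind it is not given in the sources used here. No test between treatments was made. Treatment values below carry 95% intervals that cover counting error only.

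Conventional dendritic cells sample antigen in tissues and present its peptides on MHC class II to CD4 T cells and on MHC class I to CD8 T cells. The cDC1 subset, marked by the chemokine receptor XCR1 and dependent on the transcription factors BATF3 and IRF8, is known for cross-presentation, the loading of antigen from other cells onto MHC class I. Dendritic cells can carry CD70, the ligand of CD27, and interferon gamma from T and NK cells induces in them a set of GTPases, antigen-loading genes and the chemokine CXCL9, which attracts T cells that carry CXCR3.

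Interferon-responsive and MHC class II genes carry most of the results that follow, and promoters of 4 of them are shown for the elements they hold or lack. The windows surround the gene start and come from RefSeq (build GRCm38.p6), written 5′ to 3′ on the strand of the gene. Capitals mark an interferon-stimulated response element (ISRE, GAAANNGAAA), a gamma-activated site (GAS, TTCNNNGAA) or the inverted CCAAT box (Y box, ATTGG) of MHC class II promoters, searched on both strands. ISRE and GAS were marked in the first 3 promoters, and the Y box in that of H2-Aa. Gbp2b lies at chr3:142594597-142594896 on the + strand, Igtp at chr11:58199306-58199605 on the + strand, Cxcl9 at chr5:92328030-92328329 on the - strand and H2-Aa at chr17:34287774-34288073 on the - strand.
Gbp2b: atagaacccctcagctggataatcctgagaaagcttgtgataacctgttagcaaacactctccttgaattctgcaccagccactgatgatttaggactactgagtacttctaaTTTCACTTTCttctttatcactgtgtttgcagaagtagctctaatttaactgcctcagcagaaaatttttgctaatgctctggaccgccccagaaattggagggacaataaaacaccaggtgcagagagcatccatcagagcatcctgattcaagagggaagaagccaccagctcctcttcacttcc
Igtp: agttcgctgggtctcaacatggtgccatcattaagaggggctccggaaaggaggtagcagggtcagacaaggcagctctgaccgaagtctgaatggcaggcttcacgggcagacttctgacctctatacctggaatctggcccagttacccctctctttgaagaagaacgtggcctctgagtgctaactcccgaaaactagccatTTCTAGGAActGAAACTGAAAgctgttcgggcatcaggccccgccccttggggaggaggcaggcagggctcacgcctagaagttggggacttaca
Cxcl9: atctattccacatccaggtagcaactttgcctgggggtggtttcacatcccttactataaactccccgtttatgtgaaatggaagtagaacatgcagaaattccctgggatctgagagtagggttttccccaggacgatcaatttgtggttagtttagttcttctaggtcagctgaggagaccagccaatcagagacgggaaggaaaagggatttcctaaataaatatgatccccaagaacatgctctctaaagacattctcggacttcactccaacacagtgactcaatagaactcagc
H2-Aa: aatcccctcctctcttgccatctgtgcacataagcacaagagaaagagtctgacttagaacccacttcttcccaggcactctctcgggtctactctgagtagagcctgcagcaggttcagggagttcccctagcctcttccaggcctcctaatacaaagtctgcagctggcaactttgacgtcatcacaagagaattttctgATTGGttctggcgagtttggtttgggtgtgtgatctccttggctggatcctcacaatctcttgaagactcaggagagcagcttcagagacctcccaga
The ISRE began 137 bases before the gene start of Gbp2b and 34 bases before that of Igtp, where a GAS began 45 bases before it. Of all 32851 promoter windows in the table, 3.44% held the ISRE, 8.30% the GAS, 11.3% either of them and 37.4% the Y box. Of the 33 interferon gamma genes listed, 23 had a promoter in the table and 18 of these held an ISRE or a GAS. The Cxcl9 window held neither, which says only that these letters are not in it. Of 15 MHC class II genes in the count table, 11 had a promoter, of which 9 held the Y box and 2 an ISRE or a GAS.

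The gated cells made up 33 of 432 kept cells in the combination library (7.64%, exact Clopper-Pearson 95% interval 5.32 to 10.6%) and 9 of 501 with anti-CD20 (1.80%, 0.825 to 3.38%). They were 24 of 497 with anti-CD27 (4.83%, 3.12 to 7.10%) and 12 of 340 in the isotype control (3.53%, 1.84 to 6.08%). The share was 5.84 percentage points higher in the combination than with anti-CD20 (Newcombe 95% interval 3.17 to 8.86). The anti-CD27 library exceeded its control by 1.30 points, with an interval of -1.68 to 4.01. B cells were nearly absent from the combination library, where 2 kept cells met a rule on B cell genes such as Cd79a, Cd79b and Ms4a1, against 181 with anti-CD20, 144 with anti-CD27 and 176 in the isotype control. Outside that B cell class the gated cells were 7.67%, 2.81%, 6.80% and 7.32% of cells, in the order combination, anti-CD20, anti-CD27 and isotype control. The difference was then 4.86 points (1.60 to 8.06) for the combination over anti-CD20, and -0.518 points (-6.01 to 3.87) for anti-CD27 over its control.

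**Figure D1:**
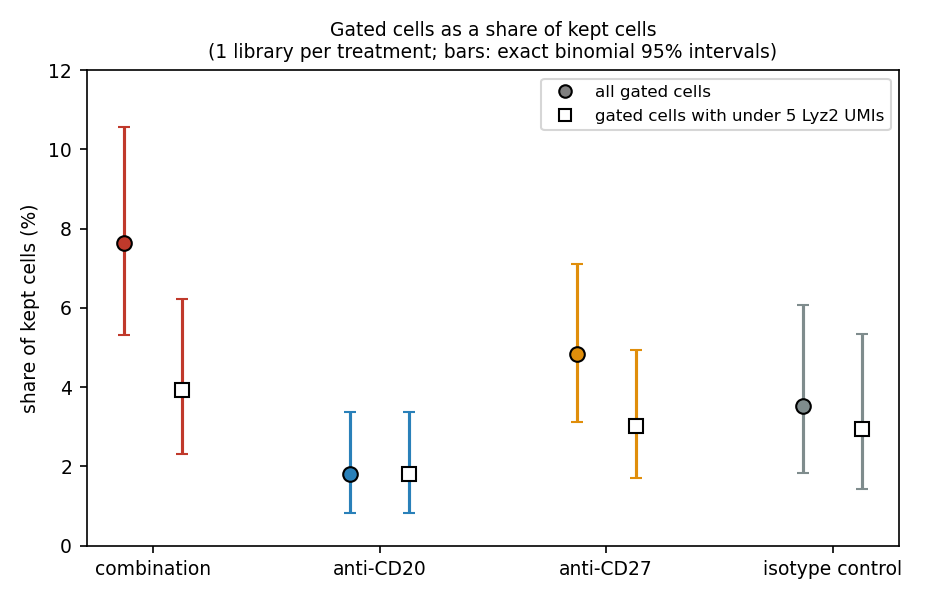
Share of kept cells (%) that met the gate in each library, with all gated cells as filled circles and those with under 5 Lyz2 UMIs as open squares. Bars are exact binomial 95% intervals. The combination stands at 7.64% and anti-CD20 at 1.80% for all gated cells, and the 2 libraries come to 3.94% and 1.80% for the cells low in Lyz2.

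The gate held at least 2 kinds of cell. A group of 27 cells carried 8 to 102 UMIs (median 60) of Lyz2, the lysozyme gene of monocytes and macrophages, while the other 51 had 0 to 4, and 40 of these had 0. A limit of 5 Lyz2 UMIs, set after these values had been seen, splits them into Lyz2-high and Lyz2-low cells. Ly6c2, a surface marker of inflammatory monocytes, was detected in 27 of 27 Lyz2-high and 16 of 51 Lyz2-low cells. Ccr2, the chemokine receptor through which monocytes leave the bone marrow, was detected in 25 of 27 Lyz2-high and 10 of 51 Lyz2-low cells. Xcr1 was found in 1 Lyz2-high and 20 Lyz2-low cells, and Flt3, a growth factor receptor of dendritic cells and their precursors, in 0 and 18. The Lyz2-high cells entered mainly through Ifi205 (24 of 27) and Naaa (22 of 27), which were found in 27 and 29 of the 51 Lyz2-low cells. The 27 Lyz2-high cells thus carried defining genes of monocytes, which goes against the label of conventional dendritic cell, and all 78 are called gated cells here. Among Lyz2-low cells, the 31 without Xcr1 had a median of 7 Cst3 UMIs, against 43 in the 21 gated cells with Xcr1.

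Levels over the summed cells, as counts per total UMIs scaled in the usual way (CPM), show the same split. Cst3, the protease inhibitor cystatin C, which is abundant in dendritic cells, had 12315 CPM in Lyz2-low and 2345 CPM in Lyz2-high cells, against 1967 CPM in monocytes. Clec9a, the receptor for dead cells on cDC1, had 159.7 CPM in Lyz2-low cells, 20.9 CPM in Lyz2-high cells and 0 in monocytes. F13a1, coagulation factor XIII of monocytes, had 283 CPM in Lyz2-high cells and 0 in Lyz2-low cells, against 693 CPM in monocytes. Lyz2, on which the cells were split, had 15524 CPM in Lyz2-high cells, against 16502 CPM in monocytes. MHC class II was high in both, with H2-Ab1 at 10885 CPM in Lyz2-low and 7788 CPM in Lyz2-high cells, against 3822 CPM in monocytes. Of 16 genes listed for plasmacytoid dendritic cells 6 had 0 UMIs in all gated cells, among them Siglech, Klk1 and Cox6a2. The whole list had 443, 1, 166 and 38 UMIs in the combination, anti-CD20, anti-CD27 and isotype control libraries, of which 379, 0, 131 and 32 were Ly6c2, also a monocyte gene. In Lyz2-low cells the list had 31, 1, 44 and 8 UMIs.

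Lyz2-high cells were spread unevenly over the libraries: 16 in the combination, 0 with anti-CD20, 9 with anti-CD27 and 2 in the isotype control. They were 3.70 percentage points more frequent in the combination than with anti-CD20 (2.10 to 5.93), where 0 of 501 cells allow a share of up to 0.734% by the exact interval. Lyz2-low cells were 17 of 432 cells (3.94%) in the combination and 9 of 501 (1.80%) with anti-CD20, a difference of 2.14 points (-0.0167 to 4.57). They were 15 of 497 (3.02%) with anti-CD27 and 10 of 340 (2.94%) in the isotype control, a difference of 0.0769 points (-2.59 to 2.40). The excess of gated cells in the combination therefore included 16 cells with monocyte genes, and the interval for Lyz2-low cells alone reached 0. Xcr1 was detected in 11, 3, 3 and 4 cells of the combination, anti-CD20, anti-CD27 and isotype control libraries.

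**Figure D2:**
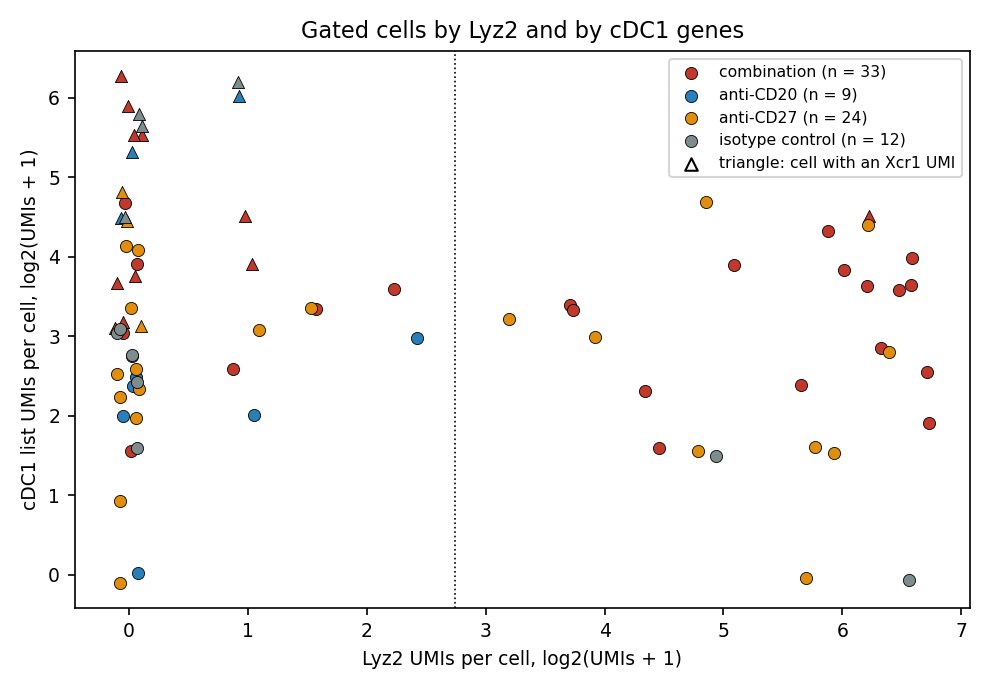
UMIs of the cDC1 list per gated cell against UMIs of Lyz2, both as log2(UMIs + 1) and slightly jittered along each axis, coloured by library, with cells that hold an Xcr1 UMI as triangles. The dotted line is the limit of 5 Lyz2 UMIs, with 51 cells left of it and 27 right of it; 20 of the 21 triangles lie to the left.

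The gated cells held 115686 UMIs in the combination, 20965 with anti-CD20, 60799 with anti-CD27 and 29544 in the isotype control, or 428 to 7992 UMIs per cell. Their median UMIs per cell were 3483, 2410, 2011.5 and 2108.5 in that order, against 1031 to 1395.5 for all kept cells. The gate collected most of the UMIs of its 6 genes in kept cells, 96.2% for Xcr1, 71.8% for Ifi205, 69.3% for Naaa, 67.7% for Nav1, 61.4% for Flt3 and 55.4% for Dnase1l3. B cell genes were few except with anti-CD27, where 63 UMIs of the B cell list lay in gated cells, against 4, 5 and 10 in the combination, anti-CD20 and isotype control libraries, and 3 gated cells had 2 or more UMIs of the B cell class genes. Of 8 barcodes shared between libraries none was gated. Doublets were not called.

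Each library holds gated and other cells, so genes were compared within libraries over 4 libraries, which also differ in treatment. Of 3785 genes tested with edgeR's quasi-likelihood test, 263 (6.95%) were higher and 216 (5.71%) lower in gated cells than in all other kept cells at a Benjamini-Hochberg adjusted p under 0.05. For Lyz2-low cells 163 of 3762 genes (4.33%) were higher and 171 (4.55%) lower, of which 149 and 144 were also called for all gated cells. Without the anti-CD27 library 165 genes were higher. The other cells are a mixture whose B cell share differs between libraries. A gene was tested at a mean of at least 50 CPM over gated and other sums together. Genes rare in the other cells could thus enter through the gated cells alone, and could hardly come out lower.

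Genes of dendritic cell identity that the gate did not use were higher in gated cells. Cst3 had 8289.7, 10589, 4474 and 13201 CPM in gated cells of the combination, anti-CD20, anti-CD27 and isotype control libraries, against 605, 453, 644 and 467 CPM in the other cells. The groups did not overlap, and the log2 fold change was 3.86 ± 0.24 (SE, edgeR adjusted p = 1.82e-15). Batf3, the transcription factor that cDC1 need, had 112, 382, 197 and 271 CPM in gated cells against 36.2, 12, 5.9 and 4.86 CPM in the others, a log2 fold change of 3.78 ± 0.59 (edgeR adjusted p = 6.96e-06). Wdfy4, which cDC1 require for cross-presentation, had 216, 620.1, 181 and 406 CPM against 20, 53.3, 44.8 and 80.3 CPM, a log2 fold change of 2.70 ± 0.37 (edgeR adjusted p = 7.57e-07). Both genes were higher in gated cells of every library, without overlap. Itgax, which encodes CD11c, had 173, 286, 214 and 169 CPM against 33.7, 20.7, 20 and 14.6 CPM (log2 fold change 3.01 ± 0.47, edgeR adjusted p = 7.41e-06). Batf3 and Itgax were under 50 CPM in the other cells of every library. They could be tested only because gated cells held them, so their folds and p-values are a description. Wdfy4 lay on both sides of 50 CPM in the other cells. Irf8 had 761, 1192, 345 and 2065 CPM against 152, 303, 281 and 411 CPM, higher within each library although the anti-CD27 gated cells lay under the isotype control's other cells (log2 fold change 1.67 ± 0.29, edgeR adjusted p = 3.42e-05).

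Of the cDC1 list, 9 of 16 genes tested were higher and 1 lower, and of the list shared by conventional dendritic cells 11 of 16 were higher, against the 6.95% of all genes. Their median log2 fold changes were 1.80 and 1.65, against -0.09 for all genes. The count table held 24 genes of the cDC1 list, and members rare in other cells, such as Batf3, were tested only through the gated cells. These shares and medians thus describe the genes that could enter and are no test of the lists. Called members included Cadm1, an adhesion molecule of cDC1 (3.0), Ppt1, a lysosomal thioesterase (2.87), Plbd1, a phospholipase-like protein (2.96), Ckb, a creatine kinase (3.82), and Dpp4, the peptidase CD26 (1.88). Cd24a was the lower gene, at -1.29 (edgeR adjusted p = 0.01), and at -0.83 in Lyz2-low cells (edgeR adjusted p = 0.193). Cd8a at 0.60 (edgeR adjusted p = 0.398) and Btla at 1.08 (edgeR adjusted p = 0.114) did not pass. The largest folds, named by rule, belonged to Ppp1r14a, an inhibitor of myosin phosphatase (6.55 ± 0.92), the septin Sept3 (5.56 ± 1.07), Adam23, a member of the ADAM family (5.50 ± 1.17), and 5430435G22Rik, now Rab7b, a small GTPase of lysosomal traffic (4.81 ± 0.79). All 4 were low, with Ppp1r14a at 51.9, 238, 197 and 237 CPM in gated cells against 0, 1.09, 1.18 and 4.86 CPM in the others. Gated cells held 82.1% of the Sept3 and 77.3% of the Adam23 UMIs of kept cells. Ccnd1, which encodes cyclin D1, had 60.5, 525, 181 and 271 CPM in gated cells against 6.24, 9.8, 5.9 and 4.86 CPM in the others (4.77 ± 0.65, edgeR adjusted p = 5.03e-07). Ppp1r14a, Sept3, Adam23 and Ccnd1 could be tested only because gated cells held them, so their folds are a description.

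MHC class II presentation was the next group, with 10 of 14 genes tested higher (7 of 14 in Lyz2-low cells). H2-Ab1, the class II beta chain, had 8376, 14023, 9769.9 and 10764 CPM in gated cells against 1232, 2502, 2164 and 3879 CPM in the others (log2 fold change 2.10 ± 0.20, edgeR adjusted p = 1.03e-10). Cd74, the invariant chain that guides class II molecules, had 14012, 21894, 18405 and 18413 CPM against 2286, 7909, 6162 and 13384 CPM (1.40 ± 0.21, edgeR adjusted p = 4.25e-06). For both genes the difference was smallest in the isotype control, where 176 of 340 kept cells belonged to the B cell class, whose part in it was not tested. Ciita, the master regulator of class II transcription, was 1.65 higher (edgeR adjusted p = 0.0115), and H2-DMa and H2-DMb1, which load peptide, were 1.60 and 1.71 higher. Ctss, the protease that trims the invariant chain, was 1.35 higher in all gated cells (edgeR adjusted p = 5.24e-05) and 0.65 in Lyz2-low cells, where it did not pass (edgeR adjusted p = 0.159). Of 22 MHC class I genes 1 was higher, Psme1, a proteasome activator subunit. H2-K1 at -0.22 (edgeR adjusted p = 0.519) and B2m at 0.12 (edgeR adjusted p = 0.73) did not differ detectably from the other cells.

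Among lysosomal genes 9 of 19 were higher and 2 lower. Psap, the saposin precursor, had 2265, 1860.2, 2155 and 2369 CPM in gated cells against 636, 310.3, 532 and 345 CPM in the others (log2 fold change 2.15 ± 0.23, edgeR adjusted p = 2.07e-09). Ctsd, the aspartic protease cathepsin D, was lower, with 112, 0, 181 and 0 CPM against 348, 103, 209.9 and 119 CPM (-1.38 ± 0.42, edgeR adjusted p = 0.0237). The list thus moved both ways, and in Lyz2-low cells 4 of its 19 genes were higher and 2 lower. Of 29 interferon gamma genes 5 were higher, against 6.95% of all genes, and 1 lower, and in Lyz2-low cells 2 of 27 higher and 1 lower, with medians of 0.29 and -0.16. Among those higher was Cxcl9, with 1729, 95.4, 2845 and 169 CPM in gated cells against 484, 18.5, 176 and 0 CPM in the others (2.95 ± 0.40, edgeR adjusted p = 4.63e-07). The gate left out cells with Cd3 UMIs, and some other lymphocyte genes were not detected. Mzb1 of B cells, Cd8b1 and Cd27, which encodes the receptor that the antibody binds, had 0 UMIs in the gated cells of every library, with Cd27 at 178, 145, 147 and 124 CPM in the other cells (edgeR adjusted p = 3.8e-06).

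**Figure D3:**
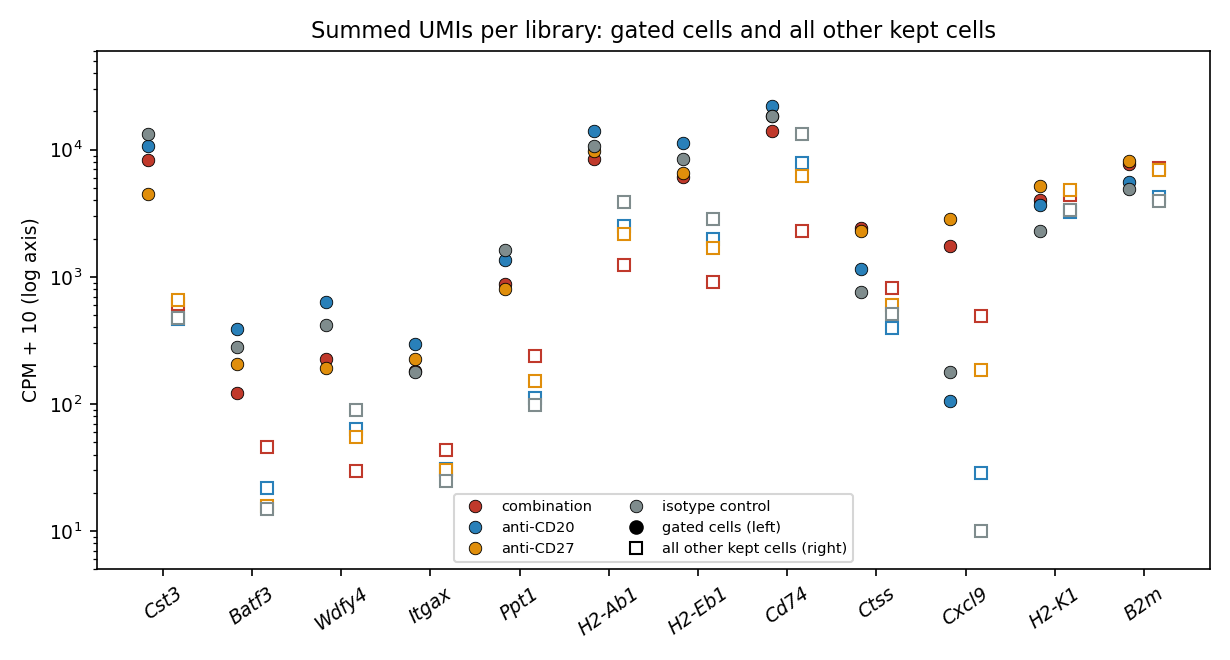
CPM + 10 on a log axis for 12 genes, with gated cells as circles on the left and all other kept cells as open squares on the right of each gene, 1 point per library and coloured by library. Cst3, Batf3, Wdfy4, Itgax and H2-Ab1 show no overlap between the 2 sets, whereas H2-K1 and B2m do.

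Macrophages (38 cells with at least 3 C1q UMIs) and monocytes (74 cells by Ccr2, F13a1, Fn1, Ms4a4c and Ly6c2) are the myeloid cells nearest to the gate, and the genes that defined these classes are not counted below. Against macrophages 105 of 3891 genes (2.7%) were higher and 108 (2.78%) lower in gated cells, and for Lyz2-low cells 137 (3.51%) and 160 (4.1%). DESeq2 called 37 higher, and leaving out any 1 library left 51 to 61 higher and 61 to 83 lower. Cst3 had 4474 to 13201 CPM in gated cells against 855 to 1736 CPM in macrophages (log2 fold change 3.06 ± 0.39, edgeR adjusted p = 1.42e-12). S100a4, a calcium-binding protein, had 579, 1049, 658 and 406 CPM in gated cells, against 18 CPM in macrophages of the combination library and 0 in those of the other libraries (6.10 ± 0.81, edgeR adjusted p = 1.92e-11). Napsa, an aspartic protease of dendritic cells, had 458, 1002, 592 and 474 CPM, against 54.1 CPM in the combination's macrophages and 0 in the others (4.51 ± 0.69, edgeR adjusted p = 1.1e-08). Class II separated the classes less evenly, since H2-Ab1 of macrophages was 7730.3 and 7768 CPM in the combination and anti-CD27 libraries but 1753 and 1302 CPM with anti-CD20 and in the isotype control (1.50 ± 0.38, edgeR adjusted p = 0.00308).

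Of the lysosomal list 1 gene was higher (Cst3) and 7 lower of 20 against macrophages, and 8 of 8 macrophage genes were lower. Ctsb, the protease cathepsin B, had 519, 191, 559 and 305 CPM in gated cells against 3748, 6372, 2901 and 4990.2 CPM in macrophages (log2 fold change -3.09 ± 0.38, edgeR adjusted p = 9.54e-14). Slc40a1, the iron exporter ferroportin, had 8.64, 47.7, 0 and 0 CPM against 847, 2823, 1685 and 3905 CPM (-7.06 ± 0.62, edgeR adjusted p = 6.78e-27). Over all libraries it was at 17.3 CPM in monocytes and 11.3 CPM in B cells, so it could be tested only because macrophages held it. The macrophages were picked by C1q genes, which the gate limits. The lower macrophage genes are thus a description of how the 2 classes were chosen. Fcna, which encodes ficolin A, and Cd5l had 0 UMIs in all gated cells, against 288 to 2604 and 144 to 1736 CPM in macrophages. Batf3 did not pass (0.42 ± 0.58, edgeR adjusted p = 0.845), since macrophages had 108 to 257 CPM of it, nor did Itgax (-0.01 ± 0.61, edgeR adjusted p = 0.998) or Cxcl9 (-0.62 ± 0.41, edgeR adjusted p = 0.53).

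Against monocytes 30 of 3885 genes (0.772%) were higher and 16 (0.412%) lower in gated cells, and 71 (1.82%) and 89 (2.29%) for Lyz2-low cells. DESeq2 called 7 higher and 10 lower. Leaving out any 1 library left 12 to 18 higher. Cst3 was 2.42 ± 0.37 higher on the log2 scale (edgeR adjusted p = 1.23e-07), with 1461 to 2434 CPM in monocytes. H2-Eb1, a class II beta chain, had 6042, 11257, 6497 and 8428 CPM in gated cells against 2482, 2227, 2673 and 1774 CPM in monocytes (2.11 ± 0.37, edgeR adjusted p = 1.05e-05). Cadm1 had 182, 382, 181 and 102 CPM in gated cells and 0 in monocytes of every library (edgeR adjusted p = 0.000149). These 3 genes did not overlap between the classes. Of the cDC1 list 6 of 12 genes were higher, among them Wdfy4 (2.60 ± 0.65, edgeR adjusted p = 0.00699) and Irf8 (1.79 ± 0.41, edgeR adjusted p = 0.00224), and 5 of 14 class II genes were. Lyz2 had 8506, 286, 6464 and 4028 CPM in gated cells against 16003, 17451, 15648 and 20138 CPM in monocytes (-2.00 ± 0.38, edgeR adjusted p = 5.6e-05). In Lyz2-low cells it was at -6.97, which follows from the split on Lyz2 itself. Hp, which encodes haptoglobin, and the chemokine Ccl9 were also lower in gated cells (-2.55 ± 0.49 and -3.22 ± 0.69).

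The B cell class was compared in the 3 libraries with at least 5 of its cells, in a fit that also held the other classes of the combination library. Against it, 354 of 3887 genes (9.11%) were higher and 223 (5.74%) lower, and for Lyz2-low cells 216 (5.55%) and 176 (4.52%). Without the anti-CD27 library 230 were higher, and leaving out any 1 library left 131 to 174 lower. Cxcl9 and Batf3 were nearly absent from B cells (log2 fold changes 7.88 ± 0.76 and 6.72 ± 0.83). Of 14 class II genes 1 was higher, Ctss (1.11 ± 0.39, edgeR adjusted p = 0.032). H2-Ab1 did not pass, with 14023, 9769.9 and 10764 CPM in gated cells of the anti-CD20, anti-CD27 and isotype control libraries against 3721, 4160.4 and 5379 CPM in B cells (1.01 ± 0.39, edgeR adjusted p = 0.056), nor did Cd74 (0.07 ± 0.39, edgeR adjusted p = 0.941).

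The treatment comparisons ask what anti-CD27 adds, with anti-CD20 (combination against anti-CD20) and without it (anti-CD27 against isotype control). The pairs share no library. A gene was measured with at least 10 UMIs over a pair and called past the fold at a ratio of at least 2, on the scale log2(CPM + 10). In the combination 815 of 2802 genes (29.1%) were at least 2-fold higher and 354 (12.6%) at least 2-fold lower than with anti-CD20. With anti-CD27 395 of 1906 (20.7%) were higher and 182 (9.55%) lower than in the isotype control. In Lyz2-low cells these were 320 (22.1%) and 158 (10.9%) of 1451, and 215 (18.2%) and 130 (11%) of 1179. The anti-CD20 sum rests on 9 cells, and many calls are of genes with few UMIs. The median log2 ratio of all genes was 0.32 and 0.09, and 0.79 and 0.34 with TMM factors, under which 1257 genes were higher and 152 lower in the first pair and 514 higher and 109 lower in the second.

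Interferon gamma genes were higher in both libraries that received anti-CD27. The gate gene Ifi205 is itself interferon-inducible, so the gated cells were picked in part on such a gene. It was found in 24 of 27 Lyz2-high and 27 of 51 Lyz2-low cells, and no alternative gate left it out. Its part in the shares of gated cells and in the interferon results was not tested. Of the interferon gamma list, 24 of 29 genes measured were at least 2-fold higher and 1 lower in the combination than with anti-CD20. With anti-CD27 19 of 23 were higher and 1 lower than in the isotype control. The shares of all genes that were higher were 29.1% and 20.7%. In Lyz2-low cells these counts were 12 of 18 with 0 lower and 12 of 16 with 1 lower, against 22.1% and 18.2% of all genes higher. The list had 2049 UMIs in the combination, 134 with anti-CD20, 941 with anti-CD27 and 154 in the isotype control, and its median log2 ratios were 3.27 and 3.70, or 1.31 and 1.92 with genes absent from a library set at their bound. In Lyz2-low cells the medians were 1.60 and 2.31, or 1.14 and 1.97 with absent genes set at their bound.

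Cxcl9 had 200 UMIs in the combination, 2 with anti-CD20, 173 with anti-CD27 and 5 in the isotype control, or 1729, 95.4, 2845 and 169 CPM. Both libraries with anti-CD27 were high and both without it low. The log2 ratio was 4.04 (2.31 to 7.24) in the combination over anti-CD20 and 3.99 (2.82 to 5.71) in anti-CD27 over the isotype control. It came from 19, 2, 11 and 3 cells, the highest cell with anti-CD27 holding 56 of the 173 UMIs. In Lyz2-low cells Cxcl9 had 39, 2, 67 and 5 UMIs, with log2 ratios of 2.87 (1.04 to 6.09) and 3.28 (2.06 to 5.02). Of the 67 UMIs with anti-CD27, 41 lay in 1 cell and 22 in another. Both lacked Xcr1 and had UMIs of Ly6c2 and Ccr2, so the second ratio rests largely on them. The 39 UMIs of the combination came from 8 cells. Cxcl9 was thus detected in 57.6%, 22.2%, 45.8% and 25.0% of gated cells. In the B cell class it was found in 0 of 2, 0 of 181, 1 of 144 (0.694%) and 0 of 176 cells, with median UMIs of 1366.5, 1937, 1023 and 1100. The pattern was not particular to gated cells. All other kept cells stood at 484, 18.5, 176 and 0 CPM, with the same 2 libraries high. Summed over all libraries, macrophages had 2775 CPM and monocytes 893 CPM.

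GTPases of the list had UMIs mainly in the libraries with anti-CD27. Gbp2b, a guanylate-binding protein, had 135, 0, 50 and 0 UMIs in the combination, anti-CD20, anti-CD27 and isotype control libraries, at least 8.16-fold higher in the first pair and at least 8.10-fold higher in the second against a floor of 3 UMIs. Iigp1, an immunity-related GTPase, had 179, 0, 48 and 0 UMIs, at least 10.8-fold and 7.77-fold higher. Gbp7 had 95, 0, 34 and 1 UMIs, at least 5.74-fold higher in the first pair and with a log2 ratio of 3.70 (1.47 to 9.39) in the second. Igtp had 22, 0, 16 and 0 UMIs and Ifi47 44, 0, 35 and 0, both immunity-related GTPases. All 5 were found in both libraries with anti-CD27, and in the 2 others only Gbp7 had a UMI. In Lyz2-low cells Gbp2b had 27, 0, 25 and 0 UMIs and Iigp1 19, 0, 27 and 0. The Gbp genes are close paralogs, so their reads may be shared between them. Outside the gate Iigp1 also stood at 707, 45.7, 338 and 26.8 CPM and Gbp2b at 713, 59.9, 381 and 41.3 CPM in all other kept cells, with the same 2 libraries high.

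Other members were detected in all 4 libraries. Ly6a, which encodes Sca-1, had 169, 4, 66 and 7 UMIs, with log2 ratios of 2.87 (1.55 to 4.83) and 2.15 (1.07 to 3.57), and of 3.02 and 1.89 in Lyz2-low cells. The exceptions were Irf8, with 88, 25, 21 and 61 UMIs and log2 ratios of -0.64 (-1.30 to 0.05) and -2.55 (-3.37 to -1.84), and Ccl5, a T cell-attracting chemokine, with 84, 44, 6 and 2 UMIs, of which 65 lay in 1 combination cell and 41 in 1 anti-CD20 cell. Per cell, the list had a median of 140 UMIs per 10000 in the combination, 43.7 with anti-CD20, 110 with anti-CD27 and 42.2 in the isotype control, and 1 anti-CD20 cell stood at 425. In Lyz2-low cells the medians were 104, 43.7, 107 and 52.2.

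**Figure D4:**
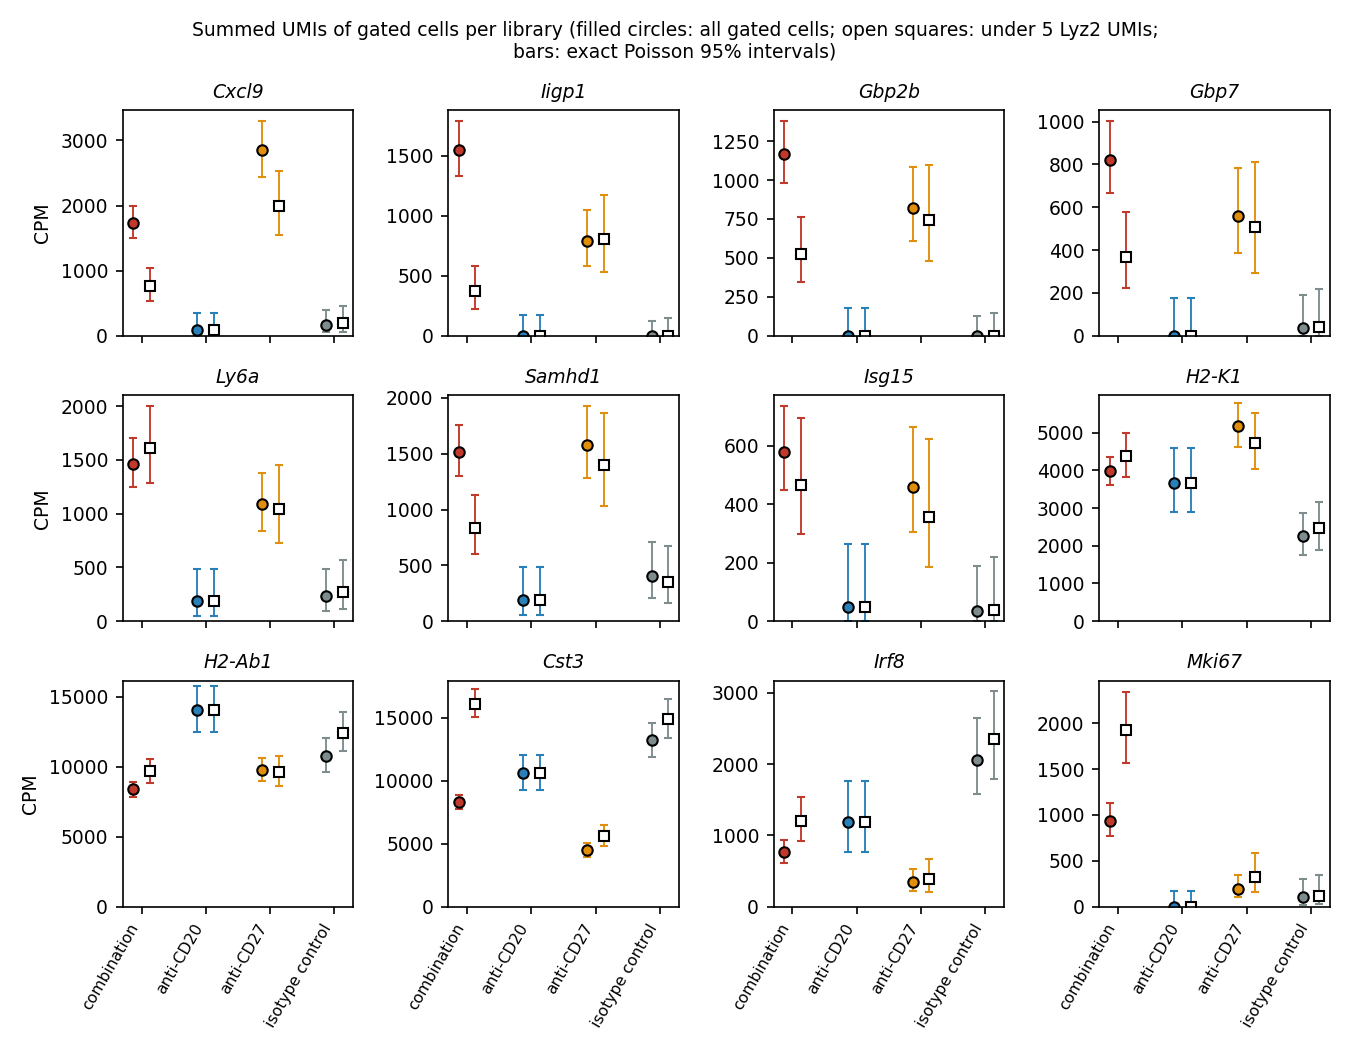
CPM of summed UMIs for 12 genes in the gated cells of each library, with all gated cells as filled circles, Lyz2-low cells as open squares and exact Poisson 95% intervals as bars. Cxcl9, Iigp1, Gbp2b, Gbp7, Ly6a, Samhd1 and Isg15 are higher in the 2 libraries with anti-CD27, whereas H2-Ab1, Cst3 and Irf8 are not; 9 cells stand behind each anti-CD20 point.

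Type I interferon genes followed with 17 of 25 higher in the first pair and 13 of 21 higher and 1 lower in the second. Of all genes 29.1% and 20.7% were higher. In Lyz2-low cells 8 of 15 and 7 of 15 were higher, against 22.1% and 18.2% of all genes. Isg15, a ubiquitin-like modifier, had 67, 1, 28 and 1 UMIs, with log2 ratios of 3.35 (1.07 to 8.93) and 3.42 (1.17 to 9.12). Samhd1, a dNTP-degrading enzyme, had 175, 4, 96 and 12 UMIs, with log2 ratios of 2.92 (1.61 to 4.88) and 1.93 (1.09 to 2.96). Both were high in the 2 libraries with anti-CD27. Ifitm3 had 274, 23, 146 and 23 UMIs with log2 ratios of 1.10 and 1.61, and -0.56 in the first pair for Lyz2-low cells.

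Of MHC class I and loading genes, 8 of 23 (34.8%) were at least 2-fold higher in the first pair, near the 29.1% of all genes, and 7 of 22 (31.8%) higher and 1 lower in the second, against 20.7%. In Lyz2-low cells 8 of 20 and 4 of 19 (21.1%) were higher, against 22.1% and 18.2%. The medians over all gated cells were 0.81 and 0.70. H2-K1, a class I heavy chain, had 3976, 3673, 5181 and 2268 CPM, with log2 ratios of 0.11 (-0.24 to 0.48) and 1.19 (0.81 to 1.59). Psmb10, a subunit of the immunoproteasome, had 63, 2, 42 and 5 UMIs with log2 ratios of 2.40 and 1.97, and Psme2, a proteasome activator, 115, 6, 69 and 16 UMIs with 1.76 and 1.05. Of MHC class II genes 1 was higher (Ctss) and 1 lower (H2-Oa) of 13 in the first pair and 2 were higher of 13 in the second, with medians of -0.36 and 0.00. H2-Ab1 had 8376, 14023, 9769.9 and 10764 CPM with log2 ratios of -0.74 and -0.14, and Cd74 14012, 21894, 18405 and 18413 CPM with -0.64 and 0.00. Class II genes were abundant in every library and mostly differed by under 2-fold. With TMM factors H2-Ab1 had -0.25 and 0.12, so its sign changed in the second pair.

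Of cDC1 genes that the gate did not use, 2 were higher and 5 lower of 15 in the first pair, and 1 higher and 8 lower of 13 in the second. Of all genes 29.1% were higher and 12.6% lower in the first pair, and 20.7% and 9.55% in the second. In Lyz2-low cells 4 cDC1 genes were higher and 1 lower of 15 in the first pair, near the 22.1% and 10.9% of all genes. In the second pair 0 were higher and 4 lower of 12, against 18.2% and 11%. The excess of lower genes in the first pair was thus absent without the Lyz2-high cells. Cst3 had 959, 222, 272 and 390 UMIs (8289.7, 10589, 4474 and 13201 CPM), with log2 ratios of -0.35 and -1.56 (-1.79 to -1.33), and of 0.61 (0.39 to 0.83) and -1.41 in Lyz2-low cells. With TMM factors they were 0.14 and -1.30, so only the second pair kept its direction. Irf8 in Lyz2-low cells had log2 ratios of 0.02 and -2.57. Id2, a transcriptional regulator that dendritic cells need, had 62, 16, 29 and 36 UMIs with -0.50 and -1.33, and Rnase6, a secreted ribonuclease, 54, 6, 15 and 24 with 0.69 and -1.68. The CPM of Cst3, Irf8, Id2 and Rnase6 was lowest in the anti-CD27 library.

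Ivns1abp was lower in both pairs. Its product binds actin, and it had 24, 15, 11 and 19 UMIs with log2 ratios of -1.74 and -1.77. Of 1722 genes measured in both pairs, 144 were at least 2-fold higher in both, 39 lower in both and 58 opposite. Among the lowest in the first pair were Cbfa2t3, a transcriptional corepressor (23 UMIs in the combination and 20 with anti-CD20, -2.21, -3.19 to -1.32), Plxnc1, a plexin receptor (11 and 11 UMIs, -2.35), and the nuclear RNA Neat1 (32 and 23 UMIs, -1.95). Of the highest, Tnfaip2 had 69, 0, 15 and 1 UMIs, Fam26f 43, 0, 26 and 0, and the myeloid gene Ms4a6d 86, 4, 51 and 0 UMIs, at least 8.26-fold higher with anti-CD27 than in the isotype control.

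Monocyte genes moved with these comparisons, and their part in the results was not tested. The monocyte list had 1633 UMIs in the combination, 27 with anti-CD20, 652 with anti-CD27 and 168 in the isotype control (14116, 1288, 10724 and 5686 CPM), and 40, 27, 54 and 6 UMIs in Lyz2-low cells. Lyz2 itself had 984, 6, 393 and 119 UMIs, and Ly6c2 379, 0, 131 and 32. In Lyz2-low cells 0 of 3 measured monocyte genes were higher and 1 lower in the first pair, and 2 of 2 higher in the second. The level of the neutrophil list also differed between libraries, and its part in these results was not tested. The list had 1815, 286, 1727 and 948 CPM in gated cells and 1322, 286, 1639 and 862 CPM in Lyz2-low cells. Of its genes 4 of 4 measured were at least 2-fold higher in the first pair (3 of 3 in Lyz2-low cells) and 2 of 4 in the second, S100a9 and Il1b, in both sets of cells. Of all genes 29.1% and 20.7% were higher in the 2 pairs, and 22.1% and 18.2% in Lyz2-low cells. Mmp9 and G0s2 were at 0 in all gated cells. In the B cell class, which should lack S100a8, a calcium-binding protein of neutrophils, 16.6% of 181 cells had an S100a8 UMI with anti-CD20, 49.3% of 144 with anti-CD27 and 18.2% of 176 in the isotype control.

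Cell cycle genes were higher in the combination, with 14 of 16 at least 2-fold higher than with anti-CD20, against 29.1% of all genes. In Lyz2-low cells these were 10 of 12, against 22.1%. In the second pair 2 of 8 were higher, near the 20.7% of all genes, and 7 of 8 in Lyz2-low cells, against 18.2%. Of the 204 list UMIs in Lyz2-low cells with anti-CD27, 114 lay in 1 cell, so that count rests largely on it. Mki67, which encodes the proliferation antigen Ki-67, had 108 UMIs in the combination, 0 with anti-CD20, 12 with anti-CD27 and 3 in the isotype control, at least 6.52-fold higher in the first pair and with a log2 ratio of 0.89 (-0.93 to 3.42) in the second. Top2a, the topoisomerase of dividing cells, had 107, 1, 12 and 3 UMIs, with log2 ratios of 4.02 (1.77 to 9.59) and 0.89. The anti-CD27 cell with 114 list UMIs held 8 of the 12 Mki67 and 10 of the 12 Top2a UMIs of its library. The 16 gated cells with at least 10 cell cycle UMIs held 93.1% of the Mki67 and Top2a UMIs. Both genes are in the list by which these cells were picked, so a high share follows in part from the choice. The limit also favours cells with many UMIs. Not all 16 carried these genes. Combination cells with 15, 10 and 11 list UMIs, an anti-CD27 cell with 31 and an isotype control cell with 13 had 0 of both. Of the 16 cells 10 were in the combination library, 11 were Lyz2-low and 7 had an Xcr1 UMI. The anti-CD20 sum rested on 9 cells.

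**Figure D5:**
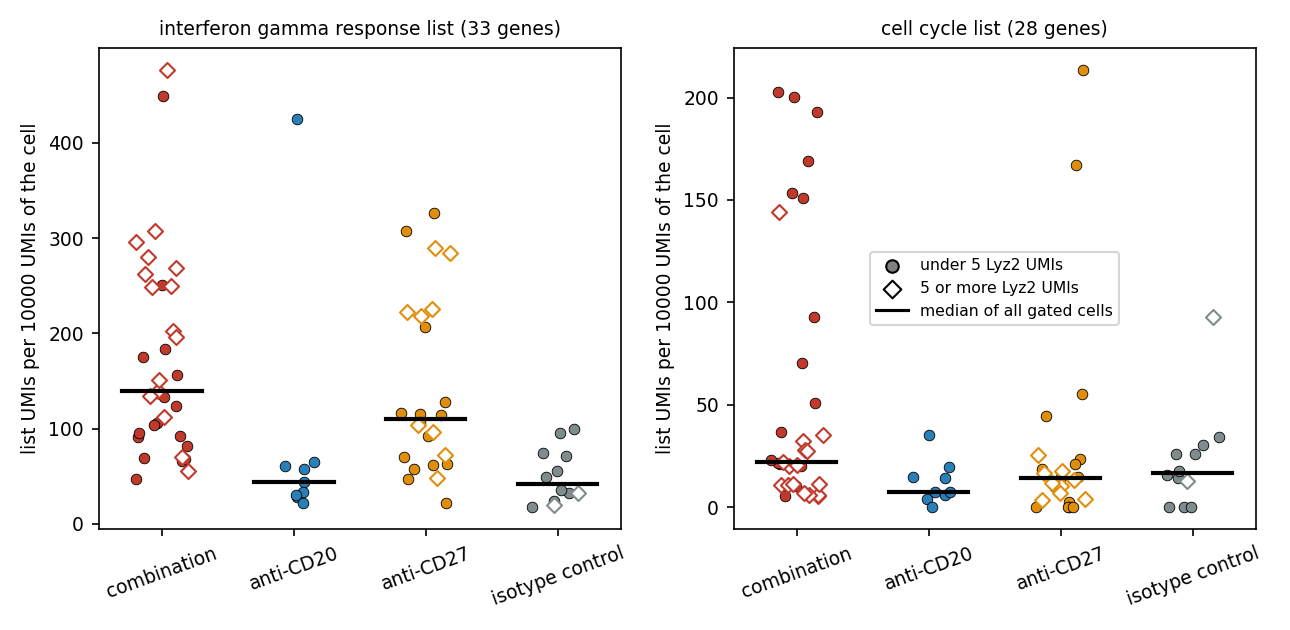
UMIs per 10000 of the interferon gamma list and of the cell cycle list in each gated cell, by library, with Lyz2-low cells as circles, Lyz2-high cells as open diamonds and the median of all gated cells as a line. The medians of the interferon list are 140, 43.7, 110 and 42.2 in the combination, anti-CD20, anti-CD27 and isotype control libraries and those of the cell cycle list 22, 7.68, 14.2 and 16.9, with single cells of the combination and anti-CD27 libraries far above the median.

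Costimulation gave few UMIs. Cd70, the ligand of CD27, had 0 UMIs in the gated cells of every library, which allows up to 25.9 CPM in the combination, 143 with anti-CD20, 49.3 with anti-CD27 and 102 in the isotype control. Cd86, a ligand of CD28, had 20, 1, 8 and 3 UMIs, and Cd40 11, 2, 13 and 2. Il12b, a subunit of interleukin 12, had 17 UMIs, all in 1 combination cell. Differences in Cd70 were not detectable at this depth.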

How the data were processed

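Splenocytes of 4 treatments were measured by Drop-seq, 1 library each. The deposited table held counts of UMIs as the authors obtained them, 17252 genes by 3198 barcodes, in whole numbers up to 2416 that were not scaled, with 799 or 800 barcodes per library, some outside the gene limits used here. Per the submitters' processing notes, STAR 2.5.0a and mm10 were used. Reads were assigned without any statement on paralogs, so counts of near-identical genes such as Gbp, Ly6 or H2 members may be shared.

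Barcodes with 300 to 3000 genes were kept, 432 in the combination, 501 with anti-CD20, 497 with anti-CD27 and 340 in the isotype control, with 440710 to 939565 UMIs per library. The gate and the gene lists were chosen with earlier results of these data known, and so were the classes they were compared with. Classes were defined by at least 3 C1q UMIs (macrophage) or at least 2 UMIs and 2 genes of the B cell or monocyte genes.

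UMIs were summed per library and class. Gated cells were compared with other cells by edgeR 4.0.16 (quasi-likelihood test, TMM, library as a term, mean of at least 50 CPM, classes of at least 5 cells) in R 4.3.3. The SE is the log2 fold change divided by the square root of F. P-values were adjusted by Benjamini-Hochberg over all genes tested. They measure the spread between 4 libraries that also differ in treatment. Treatment pairs have no test. CPM were given with exact Poisson intervals, ratios as log2(CPM + 10) with exact conditional intervals, which understates low genes, shares with Clopper-Pearson and their differences with Newcombe intervals, all at 95% and for counting error only. A count of 0 was given a floor of 3 UMIs per library.

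Named genes were the 20 highest genes past the test that were higher in every library and the 10 lowest, the 10 largest and 10 smallest ratios with at least 20 UMIs per pair, and, from each list, members with the most UMIs or past the fold in both pairs, without gate, immunoglobulin, haemoglobin, ribosomal and mitochondrial genes. A part of these is printed. Genes named beyond the rule, such as Cd70, Cd27 and Flt3, were chosen for their role with values known. Alternatives were other gene limits, stricter or shorter gates, other normalization (DESeq2 1.42.0, library totals, TMM for pairs), filters, pseudocounts, thinning to 400 or 800 UMIs, and leaving out each library. The Lyz2 limits and the removal of barcodes that differ by 1 base were added after seeing the data. Scripts were tested on simulated data. Python 3.11.15, pandas 2.3.3 and scipy 1.17.1 were used. Results of some genes are not reported here.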

Additional observations from a re-analysis of the deposited data

Results flagged for a closer look

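For 4 genes the summed ratio pointed one way in the combination over anti-CD20 and the other way in anti-CD27 over the isotype control. With 1 library per treatment the difference between the pairs was not tested. Tmem258, a subunit of the oligosaccharyltransferase, had 26, 0, 11 and 15 UMIs in the combination, anti-CD20, anti-CD27 and isotype control libraries, with log2 ratios of 4.55 and -1.44, the first from a library at 0 and at least 1.57-fold by the floor. Ghitm, a mitochondrial membrane protein, had 13, 0, 9 and 13 UMIs, with log2 ratios of 3.61 and -1.51, where the floor of 3 UMIs sets no bound above 1 for the first. Magt1, a magnesium transporter, had 34, 2, 11 and 16 UMIs, with log2 ratios of 1.53 and -1.53. Neat1, a nuclear RNA, had 32, 23, 23 and 5 UMIs, with log2 ratios of -1.95 and 1.12. Among all genes measured in both pairs 58 were past the 2-fold limit in opposite directions.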

How the results depend on the processing

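No paired analysis was possible because each treatment is 1 library, so the shared replicate number joins nothing. Limits are the 9 to 33 gated cells per library, a total of 20965 UMIs with anti-CD20, and the mixture of Lyz2-high and Lyz2-low cells. Of all log2 fold changes recomputed against other classes 2649 kept their direction and their side of the threshold, 260 lost the call, 30 gained it and 10 reversed. Of the log2 ratios between treatments 1444 stayed within the counting interval, 80 moved and 4 reversed. The cause was not tested unless the setting itself removes cells or genes.

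Without Lyz2-high cells the share of gated cells was 3.94% in the combination and 3.02% with anti-CD27, and without any Lyz2 UMI 2.78% and 2.62%. It was 5.09% in the combination by the gate without Naaa, and 7.32% in the isotype control outside the B cell class. Gated cells with a UMI of the cDC1 list were 100, 88.9, 91.7 and 91.7% in the combination, anti-CD20, anti-CD27 and isotype control libraries. Thinned to 400 UMIs they were 69.7, 33.3 and 62.5% in the first 3, and thinned to 800 UMIs 87.5% in the combination. They were 100% with anti-CD20 by the gate without Flt3, and 100% in the isotype control by the gate without Naaa, without Lyz2-high cells or without any Lyz2. For the cDC2 list thinning to 400 UMIs gave 63.6% in the combination and 33.3% in the isotype control, against 90.9 and 75.0% before it.

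Leaving out 1 library gave 165 to 266 genes higher and 161 to 194 lower against all other cells, 51 to 61 higher and 61 to 83 lower against macrophages, 12 to 18 higher and 8 to 14 lower against monocytes, and 230 to 304 higher and 131 to 174 lower against B cells. The lowest count against all other cells was without the anti-CD27 library.

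Without Lyz2-high cells 163 genes were higher against all other cells, 71 higher and 89 lower against monocytes, and 216 higher against B cells. Without any Lyz2 these were 136, 53, 95 and 175, and 167 were lower against macrophages. DESeq2 called 130 lower against all other cells, 37 higher against macrophages, 7 higher and 10 lower against monocytes and 123 lower against B cells. With no filter 398 were lower against all other cells, 69 lower against macrophages and 342 lower against B cells. filterByExpr gave 46 higher against macrophages, 11 higher against monocytes, and 164 higher and 86 lower against B cells. With 500 to 3000 genes 62 were higher against macrophages. Against monocytes 26 were lower with at least 3 gate UMIs, 31 by the gate without Naaa and 31 with library totals.

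In the combination over anti-CD20 the genes at least 2-fold higher and lower were 320 and 158 without Lyz2-high cells, 244 and 89 without any Lyz2, 1678 and 739 with at least 5 UMIs, 361 and 127 with at least 20 UMIs, and 1257 and 152 with TMM factors. TMM thus raised the share of higher calls to 89.2%, against 69.7%. In anti-CD27 over the isotype control they were 171 and 119 without any Lyz2, 874 and 515 with at least 5 UMIs, and 127 and 53 with at least 20 UMIs. 215 were higher without Lyz2-high cells, 119 lower with a pseudocount of 50 CPM and 109 lower with TMM factors, where 82.5% of calls were higher, against 68.5%.

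Genes of monocytes reversed. Ccr2 against all other cells was -0.33 without Lyz2-high cells and -1.73 without any Lyz2, against 1.56, and against macrophages -2.04 without any Lyz2. Lyz2 against all other cells was -0.038 by the gate without Naaa, -4.31 without Lyz2-high cells and -13.25 without any Lyz2, against 0.71, where the last 2 settings remove it by construction. Against macrophages Lyz2 was -4.03 and -10.59 in those settings, and against B cells -0.30 and -6.91. Between combination and anti-CD20 without Lyz2-high cells Ccr2 was -1.59, Ifitm3 -0.56 and Lyz2 -0.68, and Ccl5 was 2.45 by the gate without Flt3, which removes the anti-CD20 cell that held 41 of its 44 UMIs.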

Other observations

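Cells with many UMIs of the mature list were few. A combination cell of 2160 UMIs held 108 UMIs of the mature list, with 65 of Ccl5, 17 of Il12b, 7 of Marcks, a substrate of protein kinase C, and 3 each of Ccr7, the receptor for migration to T cell zones, Cd86 and Cd274, which encodes PD-L1. It had 2 Lyz2 and 0 Xcr1 UMIs, and 97 UMIs of the interferon gamma list. An anti-CD20 cell of 1129 UMIs held 66 UMIs of the list, 41 of them Ccl5 and 1 each of Ccr7 and Fscn1, which encodes the actin-bundling protein fascin, and 48 UMIs of the interferon gamma list. It had 0 Cst3 and 3 MHC class II UMIs, against medians of 13 and 111 in Lyz2-low cells. These 2 cells carried most of the Ccl5 of their libraries' gated cells.

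B cell genes in the anti-CD27 gated cells came mainly from 1 cell. Ms4a1, which encodes CD20, had 0, 1, 22 and 0 UMIs in the combination, anti-CD20, anti-CD27 and isotype control libraries, 19 of the 22 in a single cell, and Bank1, an adaptor of B cell receptor signalling, had 0, 4, 21 and 0 UMIs, 13 of the 21 in 1 cell.

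Genes of the cDC2 list had 459 UMIs in gated cells of the combination and 69 with anti-CD20, with 4 of 9 genes measured at least 2-fold higher, Clec4a1, Clec12a, Ccr2 and Csf1r. In Lyz2-low cells 0 of 4 were higher and 2 lower. With anti-CD27 6 of 10 genes were higher than in the isotype control, and 3 of 4 in Lyz2-low cells. Of lysosomal genes 8 of 18 were higher and 2 lower in the combination over anti-CD20, and 0 of 13 higher and 2 lower in Lyz2-low cells. With anti-CD27 over the isotype control 7 of 15 were higher and 1 lower, and 1 of 8 higher and 1 lower in Lyz2-low cells. Of all genes 29.1% were higher and 12.6% lower in the first pair, and 20.7% and 9.55% in the second. In Lyz2-low cells these shares were 22.1% and 10.9%, and 18.2% and 11%.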
